A study of Mus musculus with 7 samples.

Results

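The NRF2 antioxidant response was described through 10 genes, taken by symbol from a table of 54309 genes: Nfe2l2, Keap1, Hmox1, Nqo1, Gclc, Gclm, Txnrd1, Srxn1, Prdx1 and Prdx6. Each symbol matched 1 gene identifier, and each gene was above 0 in every sample. The samples were lumbar (L4-6) dorsal root ganglia of C57bl/6 mice, all labelled male, although sex-linked transcripts in some ZT20 libraries went against that label, aged 6 to 8 weeks, dissociated with enzymes and enriched for neurons on an albumin gradient. All animals had a sciatic nerve injury, and the ganglia were taken 72 h later. The groups were ZT20 (4 samples) and ZT8 (3 samples), where ZT is Zeitgeber time, the hour counted from lights on. The labels name no other treatment or allele and give no uninjured group.

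NRF2, the product of Nfe2l2, is a transcription factor that binds antioxidant response elements as a heterodimer with a small MAF protein. KEAP1 holds it in the cytoplasm and hands it to a CUL3 ubiquitin ligase for degradation, and oxidants or electrophiles acting on KEAP1 let NRF2 accumulate, so its activity is set largely at the protein level. Its targets make glutathione (Gclc, Gclm), remove peroxides (Prdx1, Prdx6), keep thioredoxin and peroxiredoxins in working order (Txnrd1, Srxn1), break down heme (Hmox1) and reduce quinones (Nqo1). Sensory neurons carry long axons with a high demand for mitochondrial energy.

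The antioxidant response element is the sequence through which these genes are grouped, so its letters are shown where they lie close to a start site. RefSeq promoter windows (build GRCm38.p6, 250 bases before to 50 after the start) matched 7 of the 10 genes with 9 windows. Hmox1, Gclc and Prdx6 had no entry. Txnrd1 had 3 windows. The core letters TGACNNNGC, searched on both strands, were in a window of 5 genes (Nfe2l2, Gclm, Txnrd1, Srxn1 and Prdx1), in 5 of the 9 windows, against 12.4% of all 32851 windows. The wider form TGANNNNGC, which contains every match of the first, was in 7 of the 9 windows, against 41.3% of all windows, and in a window of 6 of the 7 genes, with Keap1 added. One match lying wholly before the start is printed for each of these 5 genes, 5′ to 3′ along the gene with 16 flanking bases where the window allows, and capitals mark the match. The one core match of Srxn1 reaches past the start, so of its 3 wider-form matches before the start the nearest is printed. That match, alone of the 3, and the Prdx1 match also hold TGAGTCA, the letters bound by AP-1. Wider-form matches of Keap1 and of another Txnrd1 window are not printed. A match is a description of letters and not a measured binding site.
Nfe2l2, chr2:75704879-75704913, minus strand: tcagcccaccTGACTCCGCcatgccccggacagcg
Gclm, chr3:122245407-122245447, plus strand: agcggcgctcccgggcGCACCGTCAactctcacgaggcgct
Txnrd1, chr10:82859098-82859138, plus strand: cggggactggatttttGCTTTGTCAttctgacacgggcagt
Srxn1 (wider form), chr2:152105463-152105503, plus strand: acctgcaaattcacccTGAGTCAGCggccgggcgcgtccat
Prdx1, chr4:116685450-116685490, plus strand: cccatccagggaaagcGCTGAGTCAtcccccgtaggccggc
The first match lies 240 bases before the Nfe2l2 start, that of Gclm 134, Txnrd1 92, Srxn1 45 and Prdx1 133. In the Gclm, Txnrd1 and Prdx1 windows the letters are read on the opposite strand.

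Several features of the libraries bear on the comparison. The Y-linked gene Ddx3y was at 11.7 to 24.2 TPM in 5 libraries and listed at 0 in ZT20 replicates 3 and 4, although all animals are labelled male. Xist, the RNA of the inactive X chromosome, was at 2.21 and 2.31 TPM in those 2 and at 1.08 TPM in ZT20 replicate 2, which also held Y-linked RNA, and at most at 0.00467 TPM in the other 4. These signs were thus found at ZT20 alone, and ZT20 replicate 1 was the one ZT20 library without them. Library identifiers are numbers at ZT20 and letters at ZT8, and if they stand for batches, batch and group cannot be told apart. Genes above 0 numbered 24192 to 25238 at ZT20 and 18297 to 22973 at ZT8, and median-ratio factors were 1.03 to 1.14 at ZT20 and 0.870 to 0.982 at ZT8, so both were separate between the groups. ZT8 replicate 2 was lowest in both, and for 6 of the 10 genes it was the ZT8 sample farthest from the group's median. All 12 neuronal markers were above 0 in every sample, with a summed level of 17960 to 23070 TPM at ZT20 and 14100 to 21410 TPM at ZT8. In limma 3 of the 12 rose at ZT20 (Elavl4, Scn9a and Scn10a, by 0.81 to 1.08 on the log2 scale) and none fell. Satellite glia markers (8 genes, none at 0) summed to 7511 to 9188 TPM at ZT20 and 12790 to 15490 TPM at ZT8, so that the groups did not overlap. Apoe supplied most of that sum (6261 to 7615 TPM against 10620 to 13560 TPM). In limma Apoe and Fabp7 were among the markers lower at ZT20, while Kcnj10, Cdh19 and Gja1 had positive differences that did not pass. Plasma cell markers (5 genes, 2 of them at 0 in at least 1 sample) summed to 267 to 485 TPM at ZT20 and 496 to 933 TPM at ZT8, which did not overlap either. Jchain supplied most of that gap (4.18 to 176 TPM against 195 to 560.4 TPM, limma adjusted p = 0.102), Mzb1 fell (limma adjusted p = 0.0432), and Xbp1 and Sdc1 differed by 0.044 and -0.0047 on the log2 scale. Schwann cell markers overlapped. In bulk RNA, fewer cells of a type and less RNA per cell cannot be told apart. The labels do not say whether each sample is 1 animal or a pool, so p-values measure the spread between these samples.

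Levels are given in TPM, a transcript abundance divided by transcript length and scaled to the same sum in each sample, which allows genes to be compared. Averaged over the 7 samples, the peroxiredoxins and sulfiredoxin were the most abundant of the 10 genes and the catalytic subunit of glutathione synthesis the least. Prdx1 stood at 344 ± 68.4 TPM (SD, n = 7), at the 96.4th percentile of tested genes. Prdx6 followed at 229 ± 35.6 TPM and Srxn1 at 171 ± 33.3 TPM (SD, n = 7). Txnrd1, Gclm, Keap1 and Nfe2l2 formed a middle range of 70.1, 57.2, 42.0 and 33.6 TPM. Nqo1 (15.6 TPM), Hmox1 (11.1 TPM) and Gclc (5.20 TPM, the 31.5th percentile) were lowest. The samples' ranges were separate between Prdx1 and Prdx6, between Srxn1 and Txnrd1, and between Nfe2l2 and Nqo1. Other neighbours in this order overlapped, and Gclm was above Keap1 in only 3 of 7 samples.

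**Figure D1:**
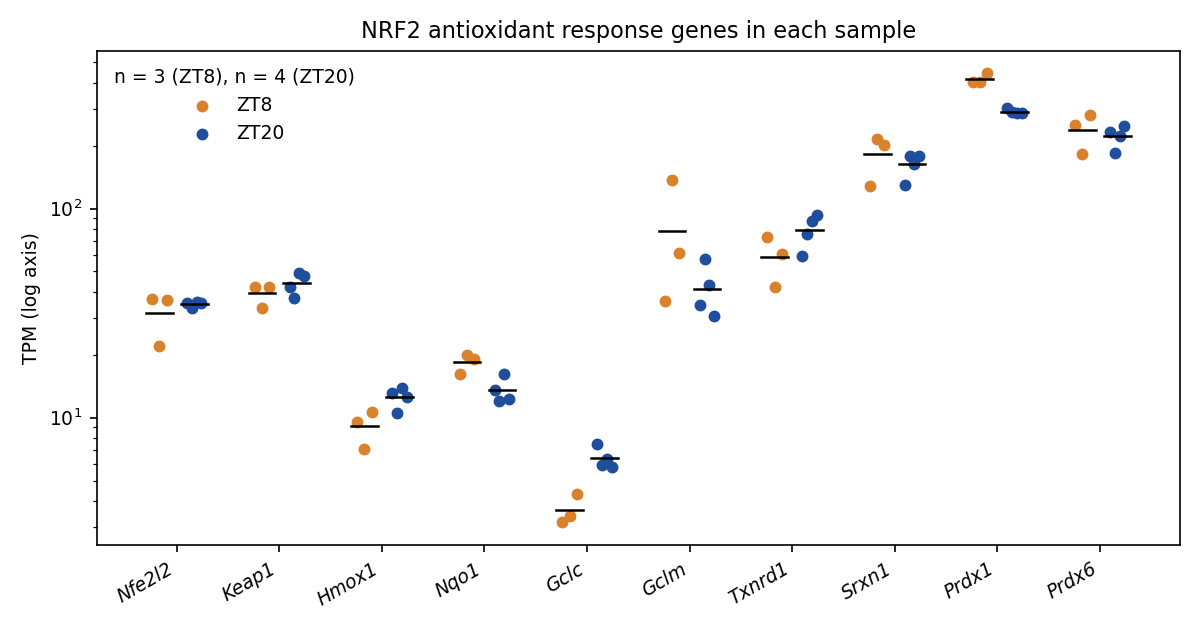
TPM (log axis) of the 10 genes in each sample, ZT8 (orange, n = 3) and ZT20 (blue, n = 4), with black bars at the group means. The groups are separate for Prdx1, with ZT20 below ZT8, and for Gclc, with ZT20 above ZT8.

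The comparison of ZT20 with ZT8 asks which transcripts of injured ganglia differ between these hours of the day. Since 72 h is a whole number of days, the hour of injury and the hour of collection cannot be told apart. Of the 10 genes, 1 (Prdx1) differed past an adjusted p of 0.05 and was lower at ZT20, and none was higher. By limma on log2(TPM + 1) with Benjamini-Hochberg adjustment, 16.4% of all 14800 tested genes passed. As shares of all tested genes, 12.8% passed as higher and 3.61% as lower at ZT20. An unadjusted p under 0.05 was reached by 3 of the 10 genes (Gclc, Nqo1 and Prdx1), against 34.6% of tested genes. Values of the 2 groups were separate for Gclc, with ZT20 above (24.5% of tested genes), and for Prdx1, with ZT20 below (8.72%), that is for 2 of 10 genes against 33.2%. Of the differences 5 were positive and 5 negative, with a median of 0.035 on the log2 scale, while the median of all tested genes was 0.23. Median-ratio scaling moved that overall median to 0.033. It called 15.5% of all tested genes, 49.3% of them higher at ZT20, against 78.1% of the calls on the values as deposited. Under it Nqo1 and Prdx1 passed, both lower. Quantile normalization called 12.4% of all tested genes and the same 2 of the 10, and the length correction described below called 10.4% of 14745 genes and 1 of the 10, Prdx1. Small differences therefore depend in sign on the scaling.

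**Figure D2:**
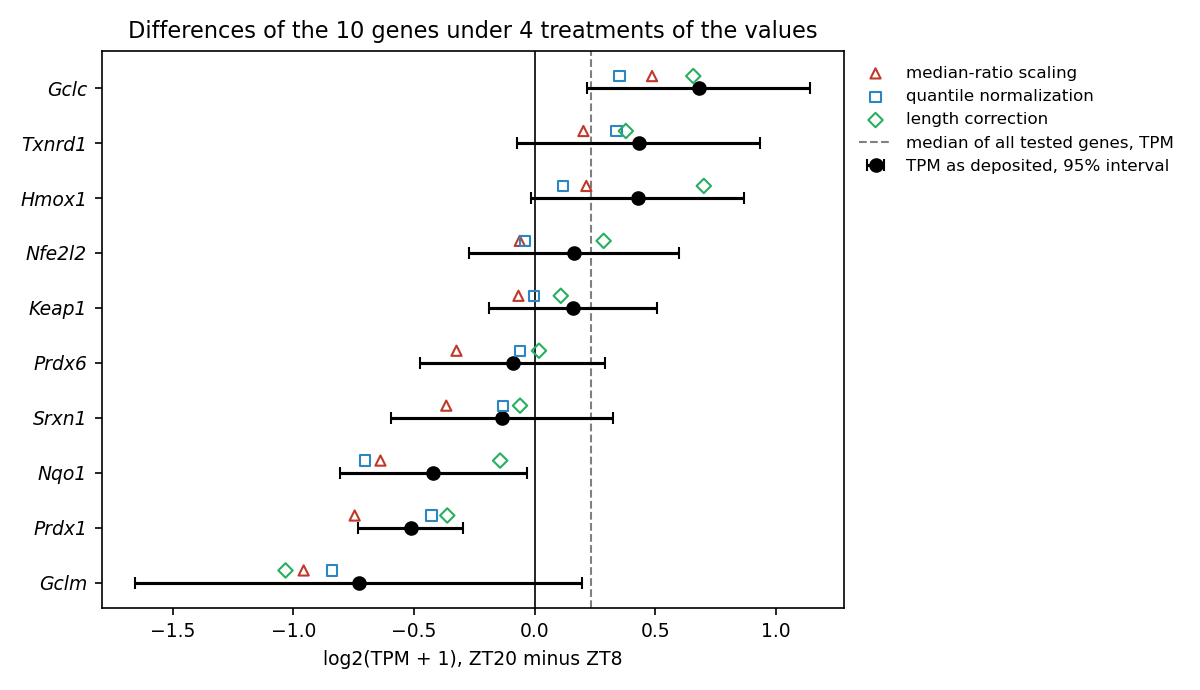
Log2 difference of each gene, ZT20 minus ZT8, with limma's 95% interval (black), and the same difference under 3 other treatments of the values (open symbols). The grey line marks the median of all tested genes. Prdx1 lies below 0 under all 4 treatments, while Nfe2l2, Keap1 and Prdx6 change sign.

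Nfe2l2 and its inhibitor Keap1 did not pass the test. Nfe2l2 (ENSMUSG00000015839) stood at 35.2, 33.4, 35.6 and 35.3 TPM in ZT20 replicates 1 to 4 and at 37.0, 22.1 and 36.4 TPM in ZT8 replicates 1 to 3. The groups overlapped, and ZT8 replicate 2 was the one sample well below the others. The log2 difference was 0.16 with a 95% interval from -0.27 to 0.60 (limma adjusted p = 0.568), and without ZT8 replicate 2 it was -0.071 (limma adjusted p = 0.667). Keap1 (ENSMUSG00000003308), the inhibitor, stood at 42.2, 37.3, 49.2 and 47.4 TPM at ZT20 and at 42.1, 33.6 and 42.1 TPM at ZT8. Its values overlapped, and the log2 difference was 0.16 with an interval from -0.19 to 0.51 (limma adjusted p = 0.479). Median-ratio scaling and quantile normalization gave a negative sign for both genes. Nfe2l2 and Keap1 each overlap another gene in GENCODE M21, and how reads were divided there is uncertain. The ratio of Nfe2l2 to Keap1 within a sample does not depend on scaling between samples. It was 0.722 to 0.896 at ZT20 and 0.657 to 0.879 at ZT8, a log2 difference of 0.0061 (two-sided exact permutation p = 1, adjusted 1 over 3 ratios).

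The subunits of glutamate-cysteine ligase, the first enzyme of glutathione synthesis, had differences of opposite sign, and neither passed. Gclc (ENSMUSG00000032350), the catalytic subunit, stood at 7.46, 5.93, 6.32 and 5.83 TPM at ZT20 and at 3.16, 3.37 and 4.33 TPM at ZT8. Every ZT20 sample was above every ZT8 sample. Its mean was 6.38 ± 0.748 TPM (SD, n = 4) at ZT20 against 3.62 ± 0.626 TPM (SD, n = 3) at ZT8. On the log2 scale ZT20 stood 0.68 higher (SE 0.20), which missed the threshold (limma adjusted p = 0.0529). It passed with array weights (limma adjusted p = 0.0275) and without the intensity trend (limma adjusted p = 0.0326). Over the 18 alternatives the adjusted p ran from 0.0275 to 0.571.

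Gclm (ENSMUSG00000028124), the modifier subunit, which raises the activity of the catalytic one, stood at 34.8, 57.1, 43.0 and 30.7 TPM at ZT20. At ZT8 it stood at 36.1, 137 and 61.4 TPM, with replicate 2 more than 2-fold above any other sample. The groups overlapped, and the log2 difference was -0.73 with an interval from -1.65 to 0.20 (limma adjusted p = 0.236). Without ZT8 replicate 2 it was -0.22 (limma adjusted p = 0.622). Gclm overlaps a gene on each strand in GENCODE M21. The ratio of Gclm to Gclc within a sample was 4.66, 9.64, 6.80 and 5.27 at ZT20 and 11.4, 40.6 and 14.2 at ZT8. All ZT20 ratios were below all ZT8 ratios, and the log2 ratio differed by -1.57. The two-sided exact permutation p was 0.0286, the smallest this design allows, and 0.0857 after adjustment over 3 ratios, so the difference did not pass. Without ZT8 replicate 2 the log2 difference was -1.01 (two-sided exact permutation p = 0.133, where 4 against 2 samples can give no less than 0.0667).

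**Figure D3:**
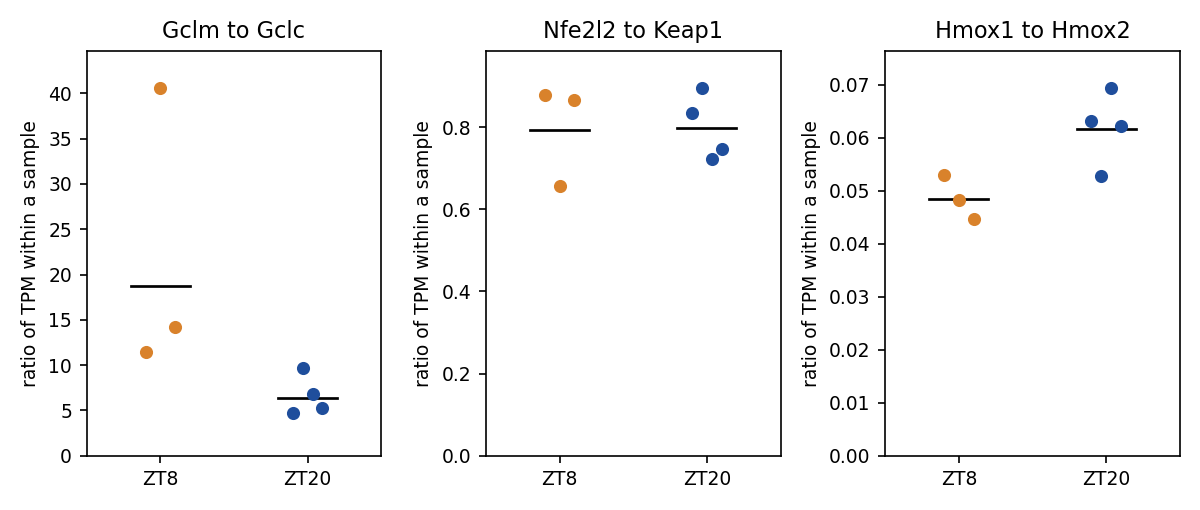
Ratio of TPM of 2 genes within each sample, on linear axes from 0, with black bars at the geometric means. The ratio of Gclm to Gclc is 4.66 to 9.64 at ZT20 and 11.4 to 40.6 at ZT8, and the ratios of Nfe2l2 to Keap1 and of Hmox1 to Hmox2 overlap between the groups.

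Prdx1 and Prdx6 encode enzymes that reduce peroxides, and Srxn1 encodes sulfiredoxin, which repairs peroxiredoxins whose active cysteine has been over-oxidised. Prdx1 (ENSMUSG00000028691) stood at 302, 289.6, 286 and 285 TPM at ZT20 and at 401, 402 and 444 TPM at ZT8. The ZT20 samples lay close together, and all were below the lowest ZT8 sample. Prdx1 fell from 416 ± 24.4 TPM (SD, n = 3) at ZT8 to 291 ± 7.79 TPM (SD, n = 4) at ZT20, so that ZT8 was 1.43 times ZT20. On the log2 scale the difference was -0.51 (SE 0.096, limma adjusted p = 0.0123), and in each of the 18 alternatives it was negative, between -0.75 and -0.36. The part of sex in the difference was not tested. The call was lost without ZT20 replicate 3 (limma adjusted p = 0.0539). It was also lost without ZT20 replicates 3 and 4 together (limma adjusted p = 0.196, difference -0.49), a comparison of 2 with 3 samples in which limma called 0 of 14800 genes and 2425 had an unadjusted p under 0.05. With the replicate block the adjusted p was 0.0503. The satellite glia sum, most of it Apoe, was also lower at ZT20, while Kcnj10, Cdh19 and Gja1 had positive differences, as given above. In a fit that included a score of neuronal over other cells' markers the Prdx1 difference was -0.62 (limma adjusted p = 0.0957). The processed pseudogene Prdx1-ps was listed at 0 in every sample.

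Srxn1 (ENSMUSG00000032802) ranged from 129 to 179 TPM at ZT20 and from 128 to 216 TPM at ZT8, a log2 difference of -0.13 with an interval from -0.59 to 0.33 (limma adjusted p = 0.666). Its sign turned without ZT8 replicate 2 (0.0085, limma adjusted p = 0.983). Prdx6 (ENSMUSG00000026701), which differs from the other peroxiredoxins in using a single active cysteine and glutathione as its reductant, ranged from 185 to 247 TPM at ZT20. At ZT8 it ranged from 183 to 280.3 TPM, and the log2 difference was -0.091 with an interval from -0.48 to 0.29 (limma adjusted p = 0.730). Without ZT8 replicate 3 the Prdx6 difference was 0.037 (limma adjusted p = 0.897). The copies Prdx6b and Prdx6-ps2 were listed at 0 in every sample. Txnrd1 (ENSMUSG00000020250), the cytosolic reductase that recycles thioredoxin, stood at 59.0, 75.9, 87.0 and 93.0 TPM at ZT20 and at 73.4, 42.1 and 60.6 TPM at ZT8. Its groups overlapped, and the log2 difference was 0.43 with an interval from -0.072 to 0.94 (limma adjusted p = 0.201). Txnrd1 shares its locus with Eid3 on the same strand in GENCODE M21.

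The other peroxiredoxins were read beside Prdx1 and Prdx6. Prdx2, a cytosolic enzyme that is abundant in neurons and red blood cells, stood at 579, 704, 545 and 574 TPM at ZT20 and at 887, 1313 and 1014 TPM at ZT8. It fell by 0.82 on the log2 scale (SE 0.16, limma adjusted p = 0.0128). Hemoglobin and other erythroid markers (5 genes, none at 0) summed to 2369 to 6679 TPM at ZT20 and to 951 to 9534 TPM at ZT8. ZT8 replicate 2 was highest in both, and ZT8 replicates 1 and 3 had the lowest erythroid sums (1603 and 951 TPM). The Prdx2 difference was -0.67 without ZT8 replicate 2 (limma adjusted p = 0.0144), and the part of erythroid RNA in it was not tested. Prdx2 overlaps Junb and Rnaseh2a on the opposite strand. Prdx4, the enzyme of the endoplasmic reticulum, fell from 101 ± 5.12 TPM (SD, n = 3) at ZT8 to 61.6 ± 5.21 TPM (SD, n = 4) at ZT20, with separate groups (log2 difference -0.70, limma adjusted p = 0.00918). The mitochondrial Prdx3 stood at 130.3 to 151 TPM at ZT20 and 142 to 150.1 TPM at ZT8 and did not pass (log2 difference -0.048, limma adjusted p = 0.770). Prdx5, found in mitochondria and other compartments, did not pass either (log2 difference -0.39, limma adjusted p = 0.146). Without ZT20 replicate 3 the adjusted p of Prdx2 was 0.0535 in limma. Without ZT20 replicates 3 and 4 the differences were -0.73 for Prdx2 (limma adjusted p = 0.202) and -0.61 for Prdx4 (limma adjusted p = 0.179), in the fit that called no gene.

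**Figure D4:**
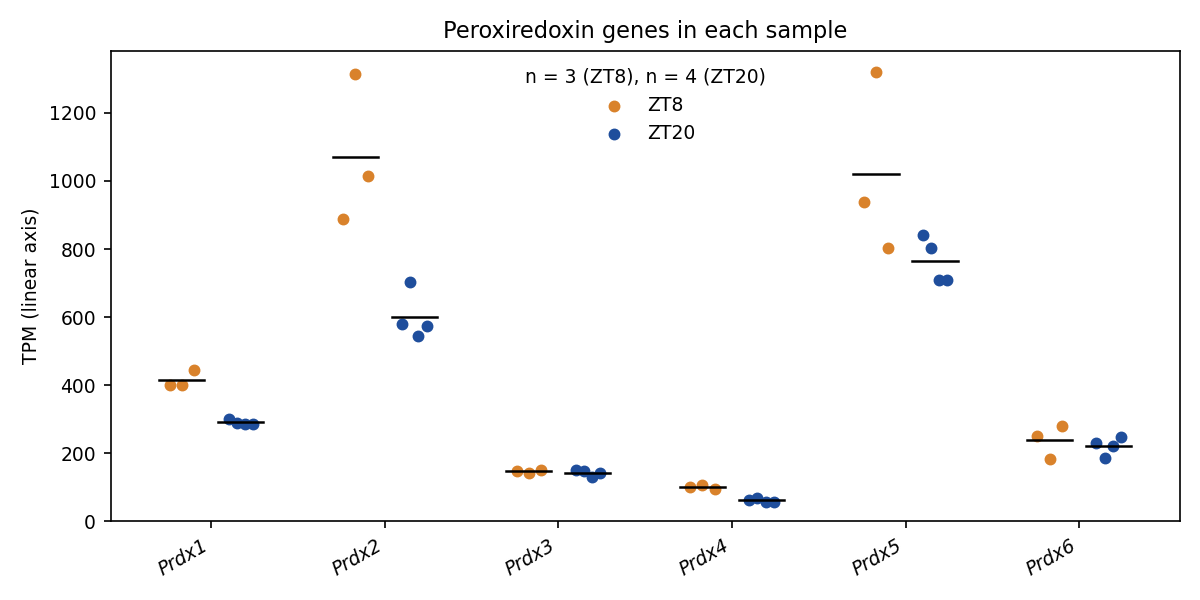
TPM (linear axis from 0) of the 6 peroxiredoxin genes in each sample, with black bars at the group means. ZT20 (blue, n = 4) lies wholly below ZT8 (orange, n = 3) for Prdx1, Prdx2 and Prdx4, and the groups overlap for Prdx3, Prdx5 and Prdx6.

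Hmox1 and Nqo1 are widely used as readouts of NRF2 activity, and their differences had opposite signs. Hmox1 (ENSMUSG00000005413), the inducible heme oxygenase, stood at 13.2, 10.5, 13.8 and 12.5 TPM at ZT20 and at 9.56, 7.12 and 10.7 TPM at ZT8. The groups overlapped by 1 sample, and the log2 difference was 0.43 with an interval from -0.014 to 0.87 (limma adjusted p = 0.156). Macrophages are a rich source of Hmox1. Their 10 markers (none at 0) summed to 389 to 715 TPM at ZT20 and 439 to 1013 TPM at ZT8, which overlapped. Lyz2 was the largest part of that sum (199 to 524.8 TPM against 167.1 to 376.5 TPM). C1qa was lower at ZT20 (limma adjusted p = 0.0253) and Mrc1, a low gene, higher (limma adjusted p = 0.0259). The part of macrophages in Hmox1 was not tested. The constitutive Hmox2 was more abundant. Its mean was 202 ± 4.58 TPM (SD, n = 4) in the ZT20 samples against 189 ± 46.3 TPM (SD, n = 3) in the ZT8 samples (limma adjusted p = 0.610). The ratio of Hmox1 to Hmox2 within a sample was 0.0528 to 0.0694 at ZT20 and 0.0447 to 0.0529 at ZT8. It differed by 0.35 on the log2 scale (two-sided exact permutation p = 0.0857, adjusted 0.129).

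Nqo1 (ENSMUSG00000003849), which reduces quinones, stood at 13.6, 12.1, 16.2 and 12.3 TPM at ZT20 and at 16.2, 19.9 and 19.1 TPM at ZT8. ZT20 replicate 3 and ZT8 replicate 1 met at 16.2 TPM, and the other samples were separate by group. The log2 difference was -0.42 with an interval from -0.81 to -0.033 and did not pass (limma adjusted p = 0.120). It passed after median-ratio scaling (-0.64, limma adjusted p = 0.0417) and after quantile normalization (-0.70, limma adjusted p = 0.0388). With each sample's trend on transcript length removed it was -0.14 (limma adjusted p = 0.608). That trend is broad: the median log2 difference was -0.13 in the tenth of tested genes that holds Nqo1 and Hmox1 by transcript length, and 0.69 in the tenth with the longest transcripts. After the same correction Hmox1 differed by 0.70 (limma adjusted p = 0.0709) and Gclc by 0.66 (limma adjusted p = 0.0698). Prdx1 still passed after it, at -0.36 (limma adjusted p = 0.0349). The correction used the longest annotated transcript of each gene, 2294 nt for Prdx1, and other choices of length were not tested.

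A wider list of 82 symbols of the pathway, grouped by role, gave 83 rows because Nnt has 2 identifiers, and 81 were tested. Past the adjusted threshold in limma, 5 rose and 12 fell at ZT20. Over all tested genes 12.8% rose and 3.61% fell. Median-ratio scaling gave 5 higher and 18 lower in the list, and 1128 higher and 1160 lower among all 14800 genes. The length correction gave 6 higher and 6 lower in the list, and 1250 higher and 287 lower among 14745 genes. Without ZT20 replicate 1 the numbers were 4 and 6, without replicate 3 they were 4 and 2, and without replicate 4 they were 4 and 3, while without ZT8 replicate 1 or 2 they were 8 and 13. With the replicate block they were 5 and 6, and with no filter on low values 4 and 4. Nfe2l1, Gpx4, Blvra, Cbr1 and Park7 were among the genes that did not pass without the filter. With the marker score as covariate only Sod1 and Tfrc of the list passed, and without ZT20 replicates 3 and 4 together none did, in a limma fit where 17 of the 81 rows and 2425 of 14800 genes had an unadjusted p under 0.05.

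All 12 regulators of NRF2 had positive differences with the values as deposited (median 0.77). As deposited, 66.4% of all tested genes were positive, with a median of 0.23. Of the 12, 2 passed, 16.7% against 16.4% of all tested genes. Under median-ratio scaling 11 of 12 were positive (median 0.57), and the median of all tested genes was 0.033. The share of all tested genes that was positive under that scaling is not given here. Gsk3b and Bach2 belong to the genes with the longest transcripts, whose median difference was 0.69, while other regulators are shorter. With the length correction all 12 were positive and 1 (Mafg) passed, where 10.4% of 14745 genes passed. Mafg, a small MAF partner of NRF2, rose from 27.6 ± 1.71 TPM (SD, n = 3) at ZT8 to 51.3 ± 1.96 TPM (SD, n = 4) at ZT20 (log2 difference 0.87, limma adjusted p = 0.00495). It overlaps Sirt7 on the same strand in GENCODE M21. Nfe2l1, the NRF2 relative that controls proteasome genes, rose from 93.9 ± 20.9 TPM (SD, n = 3) to 161 ± 25.8 TPM (SD, n = 4). Its log2 difference was 0.79 (limma adjusted p = 0.0274), and the call was lost in 4 of the 7 fits that each left out 1 sample, those without ZT20 replicates 1, 3 and 4 and without ZT8 replicate 3, and after the length correction (limma adjusted p = 0.0645). Bach1, a repressor that competes with NRF2 for its elements, ranged from 5.85 to 14.8 TPM at ZT20 and from 0.755 to 11.5 TPM at ZT8 (limma adjusted p = 0.326). Sqstm1 (p62), which binds KEAP1, was above ZT8 in every ZT20 sample but did not pass (log2 difference 0.36, limma adjusted p = 0.147).

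Of 23 tested glutathione genes 6 fell and none rose, with a median difference of -0.15, where 3.61% of all tested genes fell and 12.8% rose. With the length correction, which called 10.4% of all genes, 3 were lower (Gpx4, Glrx3 and Ggct) and 1 higher (Chac1), Ggct and Chac1 being named after their values were seen, and positive differences went from 6 to 10. With median-ratio scaling, which called 15.5% of all genes, 9 were lower and none higher. Gpx4, the peroxidase that reduces lipid peroxides, fell from 1435 ± 381 TPM (SD, n = 3) at ZT8 to 776 ± 90.6 TPM (SD, n = 4) at ZT20 (log2 difference -0.86, limma adjusted p = 0.0168). Its call was lost without ZT20 replicate 3 (limma adjusted p = 0.0631) and without ZT20 replicate 4 (limma adjusted p = 0.0595). Glrx3, a glutaredoxin of iron-sulfur cluster handling, fell by 0.69 on the log2 scale (limma adjusted p = 0.00949). Slc7a11, the cystine importer and a known NRF2 target, was at 0.616 to 0.836 TPM at ZT20 and 0.222 to 1.07 TPM at ZT8 and was too low to be tested.

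Among 14 thioredoxin and peroxiredoxin genes, 2 fell, Prdx2 and Prdx4 as given above, and none rose, against 3.61% and 12.8% of all tested genes. With the length correction 2 were lower and 2 higher, among 287 lower and 1250 higher of 14745 genes. Txn1, the thioredoxin reduced by Txnrd1, stood at 236 to 363 TPM at ZT20 and at 184 to 269.7 TPM at ZT8 (limma adjusted p = 0.194). It passed with the length correction alone among the alternatives (0.65, limma adjusted p = 0.0314). Of 9 heme and iron genes 2 rose and 1 fell (12.8% and 3.61% of all tested genes), and with the length correction 1 was higher and 0 lower. Tfrc, the transferrin receptor, rose from 17.9 ± 3.41 TPM (SD, n = 3) to 39.1 ± 2.04 TPM (SD, n = 4), so that the ZT20 mean was 2.18 times that of ZT8 (limma adjusted p = 0.00657). Fech, which inserts iron into heme, rose by 0.73 on the log2 scale (limma adjusted p = 0.00959), and with the length correction it did not pass (limma adjusted p = 0.0584). Blvra, which reduces the biliverdin that heme oxygenase makes, fell by 0.86 (limma adjusted p = 0.0200). That call was lost without ZT20 replicate 1, 3 or 4, with limma adjusted p-values of 0.0528, 0.0705 and 0.0661, and with the length correction (0.0582). The ferritin heavy chain gene Fth1 did not pass (1967 ± 385 TPM, SD, n = 4, and 1641 ± 404 TPM, SD, n = 3, limma adjusted p = 0.375).

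None of the 9 rows of NADPH-supplying enzymes passed in limma, and 2 had an unadjusted p under 0.05 (34.6% of all tested genes), G6pdx among them (log2 difference 0.40, limma adjusted p = 0.114). Of 9 tested detoxification genes 2 fell, where 3.61% of all tested genes did. Cbr1, a carbonyl reductase, fell by 0.73 on the log2 scale (limma adjusted p = 0.0322), a call that was not called when any one of the ZT20 replicates was left out (limma adjusted p = 0.0534 to 0.0998), nor with the length correction (-0.55, 0.0938) or without the intensity trend (0.0558). With the length correction 1 gene of the list was lower. Akr1b3 (aldose reductase), also in the list and named after its values were seen, fell by 0.56 (limma adjusted p = 0.0201), and its call was lost without ZT20 replicate 3 (limma adjusted p = 0.0749) or 4 (0.0666). Among 5 superoxide and peroxide genes 1 rose and 1 fell, against 12.8% and 3.61% of all tested genes. Park7 (DJ-1), a sensor of oxidative stress that was likewise named after its values were seen, fell by 0.45 (limma adjusted p = 0.0249). That call was lost without ZT20 replicate 1, 3 or 4 or ZT8 replicate 3 (limma adjusted p = 0.0532 to 0.0917) and with the length correction (-0.16, 0.271). The gene that rose was Sod1, the cytosolic superoxide dismutase, with the largest difference of the list. It stood at 404, 446, 304 and 304 TPM at ZT20 and at 117, 116 and 101 TPM at ZT8, so every ZT20 sample was more than 2-fold above every ZT8 sample. On the log2 scale it rose by 1.69 (SE 0.16, limma adjusted p = 0.00196), and the 18 alternatives gave 1.46 to 1.93. Only without ZT20 replicates 3 and 4 together did it miss the threshold (limma adjusted p = 0.0776). Sod1 overlaps Scaf4 on the opposite strand in GENCODE M21.

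**Figure D5:**
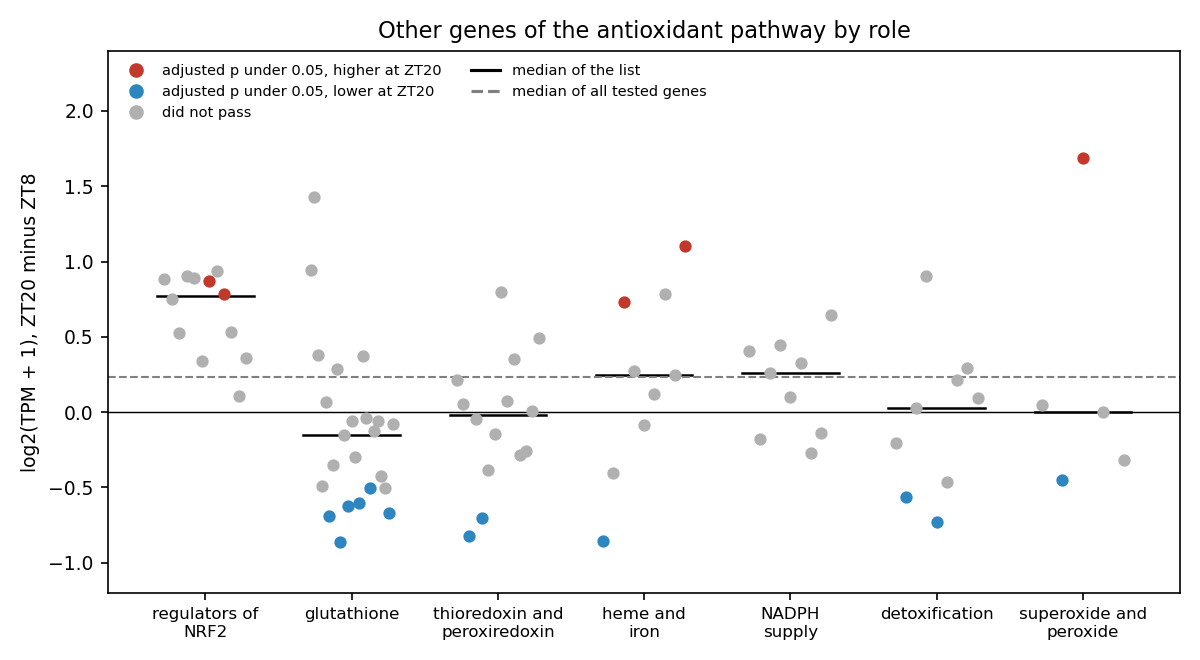
Log2 difference, ZT20 minus ZT8, of the 81 tested rows of other pathway genes by role, with black bars at each list's median and a dashed line at the median of all tested genes. The 12 genes listed as regulators, which include partners and relatives of NRF2, lie above 0 (11 under median-ratio scaling). The 6 glutathione calls are all lower at ZT20, and Sod1 stands highest at 1.69.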

How the data were processed

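Transcript abundance was measured by RNA sequencing in 7 samples, ZT20 (4) and ZT8 (3), grouped by their titles. The values are TPM, an abundance per transcript length, computed by the authors and deposited as 1 table. Salmon 1.6.0, Trim Galore 0.6.6, FastQC 0.11.9, DESeq2 1.34.0 and the build GRCm39 are named, without roles, per the submitters' processing notes. The annotation release and the step from transcripts to genes are not given in the sources used here. TPM sums to the same total in every column, so depth and counting error are unknown, and 0 columns were left unused.

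Values were analysed as log2(TPM + 1), a scale that understates changes of low genes. The 14800 genes whose mean reached 1 TPM were fitted with limma 3.58.1 (intensity trend, no covariate, R 4.3.3) over all 7 samples, two-sided, with Benjamini-Hochberg adjustment over all of them. The procedure was tested on simulated data. Ratios of 2 genes were compared by an exact permutation test over 35 assignments of samples to groups, whose smallest two-sided p is 0.0286. Transcript length, that of a gene's longest annotated transcript, and overlap came from GENCODE M21 (GRCm38, matched by identifier, 14745 tested genes). Promoter windows came from RefSeq (GRCm38.p6). These builds differ from that of the values, so coordinates belong to the printed sequences alone.

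The genes and lists were chosen with earlier results of these data known. All 10 genes are named. Of the wider list, 7 genes are named whatever their result, with the 5 higher calls and the 6 largest lower ones, the peroxiredoxins as relatives of Prdx1 and Prdx6, and Akr1b3, Park7, Ggct and Chac1, which were added after their values were seen. The analysis was repeated with 0.1 as pseudocount, without the filter, with a filter at 5 TPM, after scaling by median ratios or by quantiles, with a loess correction for length (span 0.3), with array weights, without the trend, with the replicate number as a block, with a marker score (neuronal minus other markers) as covariate, and with samples left out. Figures were drawn with matplotlib 3.10.9.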

Additional observations from a re-analysis of the deposited data

Results flagged for a closer look

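Of 35 results examined in the ZT20 group, 1 had a sample set apart from its group, where chance alone gives about 1 in 20. Nfe2l2 was lowest in ZT20 replicate 2 (33.4 TPM), below a narrow band of 35.2 to 35.6 TPM formed by the rest of the group, and the distance to that band made up a share of 0.840 of the whole range. The range itself was small, with a coefficient of variation of 2.83%.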

How the results depend on the processing

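The reported numbers of calls were 2433 genes, 1 of the 10 NRF2 genes and 17 of the wider list. A pseudocount of 0.1 and a mean of at least 5 TPM kept each within 1.5 times. Without a filter 1178 genes passed (978 higher, 200 lower at ZT20), with 8 of the wider list (4 lower). At ZT20, 1128 genes were higher and 1160 lower after median-ratio scaling, and 1023 were higher and 814 lower after quantile normalization. Either called 2 of the 10 genes, both lower. The length correction gave 1537 genes (1250 higher, 287 lower), with 6 higher and 6 lower in the wider list. Array weights gave 3899 genes (2982 higher, 917 lower), 2 of the 10 (1 higher) and 28 of the wider list (11 higher). Without the intensity trend 332 genes were lower, and 2 of the 10 passed (1 higher). The marker score covariate gave 136 genes (132 higher, 4 lower), 0 of the 10 (1 at an unadjusted p under 0.05) and 2 of the wider list (2 higher, 0 lower). Without ZT20 replicates 3 and 4, limma called 0 genes in either direction, 0 of the 10 and 0 of the wider list (2425, 1 and 17 at an unadjusted p under 0.05).

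The labels do not say whether same-numbered samples share a day. Deviations of same-numbered samples correlated at -0.0141, 0.153 and 0.083, and those of differently numbered samples at -0.168 to 0.15. With so few samples these values cannot decide whether a day was shared. The replicate block gave 1174 genes (891 higher, 283 lower), 0 of the 10 (3 at an unadjusted p under 0.05) and 11 of the wider list (6 lower).

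Leaving out 1 sample at a time gave 624 to 3055 genes (543 to 2374 higher, 81 to 681 lower), 0 to 1 of the 10 (0 higher, 0 to 1 lower) and 6 to 21 of the wider list (4 to 8 higher, 2 to 13 lower). The number of genes was 1125 without ZT20 replicate 1, 624 without replicate 3 and 819 without replicate 4. The log2 ratio of Gclm to Gclc then ran from -1.92 to -1.01 and was -1.48 without ZT20 replicates 3 and 4. These smaller designs can give no exact p under 0.0667, so their p-values say nothing about stability. That of Nfe2l2 to Keap1 ran from -0.13 to 0.080.

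Signs turned for Nfe2l2 under median-ratio scaling (-0.061), quantile normalization (-0.041), array weights (-0.013) and the marker score (-0.092), and over single omissions it ran from -0.071 to 0.29. Keap1 turned under median-ratio scaling (-0.067) and quantile normalization (-0.0016), Srxn1 under array weights (0.038), Prdx6 and Prdx3 under the length correction (0.018 and 0.24), Prdx3 without ZT20 replicates 3 and 4 (0.021), Hmox2 under median-ratio scaling (-0.11) and the marker score (-0.23), and Fth1 under the marker score (-0.22). Over single omissions the ranges were -0.37 to 0.0085 (Srxn1), -0.27 to 0.037 (Prdx6) and -0.041 to 0.30 (Hmox2). No sign turned for Hmox1, Nqo1, Gclc, Gclm, Txnrd1 or Prdx1 in the 18 alternatives. The cause of these changes was not tested. Depth is unknown, so the counting error of low genes such as Gclc cannot be given.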

Other observations

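Nnt, the mitochondrial enzyme that supplies NADPH for glutathione reduction, is listed under 2 identifiers that overlap on the same strand. ENSMUSG00000025453 stood at 0.684 to 2.36 TPM at ZT20 and 0.609 to 0.888 TPM at ZT8, and ENSMUSG00000116207 at 3.03 to 5.51 TPM and 2.55 to 5.74 TPM. A deletion in Nnt distinguishes some C57BL/6 substrains, and the labels do not name the substrain. How reads were divided between the identifiers is not given in the sources used here.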
